A study of Mus musculus with 6 samples.

Results

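Genes of mRNA decay and T cell quiescence were followed in bulk RNA-seq of splenic CD8+ T cells. The set holds 9 genes chosen by name, Zfp36, Zfp36l1, Zfp36l2, Btg1, Btg2, Tob1, Zc3h12a, Zc3h12d and Rc3h1, of the 28773 gene IDs measured. All 9 passed the filter on low values. The 6 samples were all from day 35 and formed the MWA+PBS group and the MWA+2DG group, with 3 samples each. All mice had borne an implanted tumor that was treated by microwave ablation (MWA), a heat treatment that destroys the tumor in place. MWA+PBS mice then received injections of the PBS vehicle. MWA+2DG mice received 2-deoxy-D-glucose (2DG), a glucose analogue that blocks glycolysis, as repeated intraperitoneal injections that ended before day 35. Per the study's methods the mice were female and the cells were taken with a CD8+ T cell isolation kit. The sources used here do not tie these 6 samples to a tumor model or strain. Nothing stated whether each sample was a separate mouse, so the p-values measure the spread between these samples only.

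Messenger RNAs are removed mainly by shortening of the poly(A) tail, followed by decapping or by decay from the 3' end. Proteins of the Zfp36 family bind AU-rich elements in 3' untranslated regions and recruit the CCR4-NOT deadenylase, while BTG and TOB proteins bind the deadenylase subunits Cnot7 and Cnot8 directly. Zc3h12a (Regnase-1) is an endonuclease and Rc3h1 (Roquin-1) a CCR4-NOT recruiter, and both act on stem-loops in transcripts of inflammation and costimulation. In T cells these factors are known for restraining activation and holding naive and memory cells in a resting state.

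The AU-rich element is shown first, because it is the site that the Zfp36 family proteins read and because the mRNAs of the Zfp36 family carry it themselves. In the longest annotated 3' untranslated region of each member (GENCODE M21), the nonamer UUAUUUAUU was found in 4 of the 9 mRNAs. It was present in 7.66% of the 21045 genes with an annotated 3' untranslated region. The 4 sites are given with their flanks, with the nonamer in capitals.
Zfp36: ugacgacuUUAUUUAUUguauuaag
Zfp36l1: cuguuggaUUAUUUAUUuuagaaau
Zfp36l2: uauuuaacUUAUUUAUUaucuugug
Rc3h1: uuuacucaUUAUUUAUUgagaugag
Each of the 3 Zfp36 family mRNAs held 1 nonamer and 3 copies of the heptamer UAUUUAU within it or elsewhere. Of the genes with an annotated 3' untranslated region, 4.14% held at least 3 heptamers. Length differs between these regions, at 774 bases for Zfp36, 1835 for Zfp36l1, 1822 for Zfp36l2 and 7181 for Rc3h1, so the chance of a match differs too. The longest region, that of Rc3h1, held 2 heptamers. Btg2 held 1 heptamer, and Btg1, Tob1, Zc3h12a and Zc3h12d held 0. A match is a description and not a measured binding site.

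Zfp36 and Btg2 are both classed as immediate early genes, and their promoters are shown because in FPKM as deposited Zfp36 was lower and Btg2 higher in MWA+2DG, although Btg2 too was lower after scaling to T lineage genes. Each sequence is the 250 bases before the transcription start from RefSeq (GRCm38.p6), 5' to 3' along the gene, at chr7:28379229-28379478 on the minus strand for Zfp36 and chr1:134079156-134079405 on the minus strand for Btg2. Capitals mark a match to the CArG box, the site of serum response factor, in Zfp36 and to the cyclic AMP response element TGACGTCA in Btg2.
Zfp36: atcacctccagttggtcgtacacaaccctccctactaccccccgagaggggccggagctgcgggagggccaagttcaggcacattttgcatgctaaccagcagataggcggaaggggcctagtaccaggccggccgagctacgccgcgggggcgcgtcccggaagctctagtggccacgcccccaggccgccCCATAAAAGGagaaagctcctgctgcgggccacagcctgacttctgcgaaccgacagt
Btg2: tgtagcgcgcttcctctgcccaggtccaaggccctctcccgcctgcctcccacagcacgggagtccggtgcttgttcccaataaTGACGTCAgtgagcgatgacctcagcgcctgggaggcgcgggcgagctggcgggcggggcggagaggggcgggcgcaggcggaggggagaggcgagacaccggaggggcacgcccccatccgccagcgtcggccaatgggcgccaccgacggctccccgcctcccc
The CArG box of Zfp36 began 58 bases before the start and read CCATAAAAGG. A CArG box was found in 1.4% of 27025 promoter windows of this length, on either strand, and in 1 of the 8 members with a window. The element TGACGTCA began 166 bases before the start of Btg2, and was found in 1.62% of windows and in 1 member. TGANTCA, an AP-1 site, was found in Rc3h1 and Zfp36l1 and in 6.87% of windows, and the forkhead site TGTTTAC in Btg1 and in 3.09%. An NF-kB site was found in 0 members and in 3.75% of windows. Tob1, Zc3h12a and Zc3h12d held none of these motifs, although Tob1 and Zc3h12d also changed. Whether a motif goes with a change was not tested. The window of Zfp36l2 was not analysed here. As with the AU-rich elements, these are matches of letters and not measured binding sites.

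Transcripts of other cells were present and moved with the groups. The summed level of 13 monocyte and macrophage markers was 998.3 to 1069 FPKM in MWA+PBS and 328.6 to 366.1 FPKM in MWA+2DG, and 12 of the 13 fell while Lyz2 rose (limma adjusted p under 0.05). That of 13 neutrophil markers went from 71.7 to 96.1 FPKM up to 1609 to 1789 FPKM, with 12 higher, and that of 10 B cell markers from 10.6 to 11.9 FPKM up to 58.4 to 63.6 FPKM, with 9 of 9 tested higher. Of 20 T lineage markers 19 were higher, at a sum of 2292 to 2451 FPKM in MWA+PBS and 3254 to 3508 FPKM in MWA+2DG. Cd8a, the defining marker of the labelled cells, was 225.8 to 239.3 FPKM and 359.0 to 377.1 FPKM, both ranges being far above those of Cd4, which was lower in MWA+2DG at 1.55 to 1.77 FPKM than in MWA+PBS at 2.59 to 2.91 FPKM (limma adjusted p = 0.00252). FPKM totals were 291803 to 313257, the share of mitochondrial transcripts was between 21.4% and 22.8% for MWA+PBS and between 19.4% and 20.7% for MWA+2DG, and the read depth is unknown. All 9 erythroid, 3 of 3 platelet and 2 of 2 dendritic cell markers tested were lower, as were 2 of 4 plasma cell markers. Of 4 natural killer cell markers 1 was higher and 2 lower, and of 6 CD4 T cell markers 1 was higher and 1 lower. The members are also expressed outside T cells, and the part of these shifts in the results was not tested. In bulk samples, fewer cells of a type and less RNA per cell cannot be told apart.

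Zfp36 (ENSMUSG00000044786, tristetraprolin), the founding AU-rich element binding protein, showed the largest change of the 9. Its level was 97.8, 88.7 and 95.1 FPKM in the 3 MWA+PBS samples and 58.4, 56.5 and 54.0 FPKM in the 3 MWA+2DG samples. Every MWA+2DG sample lay below every MWA+PBS sample, and the gap between the groups was wider than the spread within either. The mean fell from 93.8 ± 4.68 to 56.3 ± 2.22 FPKM (SD, n = 3), a decrease of 40.0%. On the scale of log2(FPKM + 1) the change was -0.73 ± 0.06 (SE, limma adjusted p = 8.41e-05), larger in size than that of 90.2% of the 12444 genes tested. The call held without any single sample, with log2 fold changes of -0.77 to -0.70.

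Zfp36l2, a paralog known for restraining cytokine mRNA in resting memory CD8+ T cells, was the highest of the 9 in both groups. It was 167.3, 155.1 and 162.6 FPKM in MWA+PBS and 139.9, 144.1 and 145.4 FPKM in MWA+2DG. The groups did not overlap, but they lay much closer than those of Zfp36. The log2 fold change was -0.17 ± 0.05 (SE, limma adjusted p = 0.0333). This call was lost without MWA+PBS replicate 1 (limma adjusted p = 0.128) or 3 (0.0831) and without MWA+2DG replicate 4 (0.110), 5 (0.0732) or 6 (0.0764). Zfp36l1, a paralog that shares the zinc finger domain, was 80.2, 70.1 and 79.7 FPKM in MWA+PBS and 75.2, 84.5 and 79.7 FPKM in MWA+2DG. The ranges overlapped, and the log2 difference of 0.06 did not pass (limma adjusted p = 0.554). Its 95% confidence interval was -0.11 to 0.23.

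The make-up of the family therefore differed between the groups, and this comparison does not depend on how a library is scaled. Zfp36 made up 28.2% to 28.3% of the summed FPKM of the 3 paralogs in the MWA+PBS samples and 19.3% to 21.3% in the MWA+2DG samples. Zfp36l1 held 23.1% ± 0.665 and 28.6% ± 1.06 (SD, n = 3) and Zfp36l2 48.7% ± 0.648 and 51.3% ± 0.777. The ratio of Zfp36 to Zfp36l1 was 1.22, 1.27 and 1.19 in MWA+PBS and 0.776, 0.669 and 0.677 in MWA+2DG. Zfp36 was thus the more abundant of the pair per length in each MWA+PBS sample and the less abundant in each MWA+2DG sample. The log2 ratio differed by -0.80, and that of Zfp36 to Zfp36l2 by -0.56. For each the two-sided exact permutation p was 0.1, which is the smallest that 3 samples against 3 allow.

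**Figure D1:**
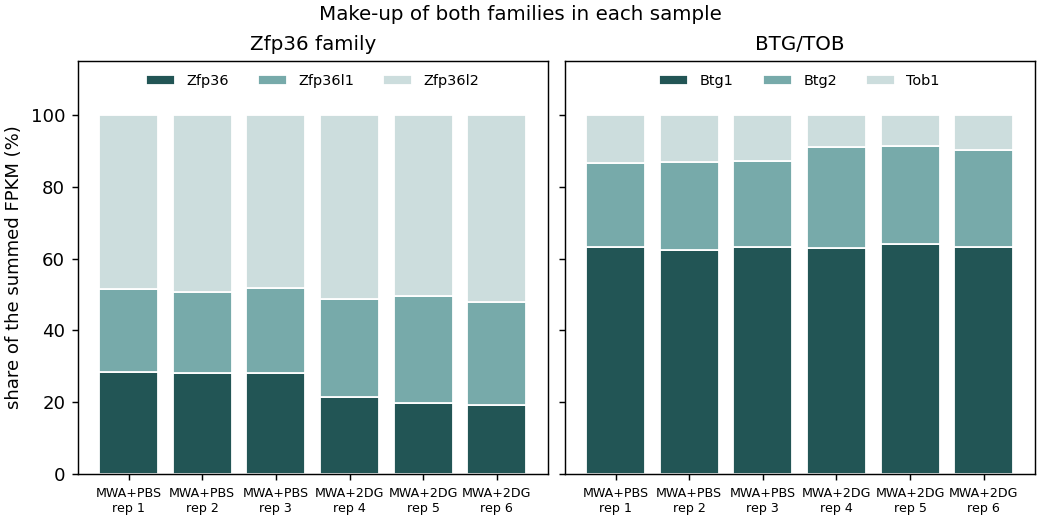
Share of each gene in the summed FPKM of its family (vertical axis, %) in each of the 6 samples (horizontal axis), for the Zfp36 family and for Btg1, Btg2 and Tob1. The Zfp36 segment is 28.2% to 28.3% in the MWA+PBS samples and 19.3% to 21.3% in the MWA+2DG samples, and the Tob1 segment is smaller in every MWA+2DG sample.

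Among the adaptors of the CCR4-NOT deadenylase, in FPKM as deposited, Tob1 was lower, Btg2 was higher and Btg1 did not pass the test. Tob1 (ENSMUSG00000037573), known as a brake on T cell proliferation, was 22.2, 21.4 and 19.4 FPKM in MWA+PBS and 14.1, 15.4 and 16.1 FPKM in MWA+2DG. The groups did not overlap, and the mean fell by 27.5%. Its log2 fold change was -0.44 ± 0.07 (SE, limma adjusted p = 0.00281), and the call held without any single sample.

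Btg2 (ENSMUSG00000020423), an antiproliferative gene that p53 also induces, was 38.2, 40.7 and 36.3 FPKM in MWA+PBS and 45.0, 48.4 and 43.9 FPKM in MWA+2DG. The groups did not overlap, with a gap of a few FPKM between the highest MWA+PBS sample and the lowest MWA+2DG sample. The log2 fold change was 0.25 ± 0.06 (SE, limma adjusted p = 0.0176). The call was lost without MWA+PBS replicate 1 (limma adjusted p = 0.0575) or 3 (0.0546) and without MWA+2DG replicate 5 (0.0566). Btg1, which acts together with Btg2 in keeping naive T cells quiescent, was 104.1, 102.3 and 95.5 FPKM in MWA+PBS and 100.03, 114.3 and 103.6 FPKM in MWA+2DG. These ranges overlapped. The difference of 0.07 did not pass (limma adjusted p = 0.423) and had a 95% confidence interval of -0.08 to 0.23.

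Relative to Btg1 in the same library, Tob1 was 0.213, 0.209 and 0.203 in MWA+PBS and 0.141, 0.135 and 0.155 in MWA+2DG. Btg2 was 0.367, 0.397 and 0.380 of Btg1 in MWA+PBS and 0.450, 0.424 and 0.424 in MWA+2DG. Neither ratio overlapped between the groups, and the differences on the log2 scale were -0.54 and 0.18 (exact permutation p = 0.1 for both). The summed FPKM of the 3 genes was between 151.2 and 164.6 for MWA+PBS and between 159.1 and 178.2 for MWA+2DG, so Btg2 and Tob1 changed within a total whose ranges overlapped.

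**Figure D2:**
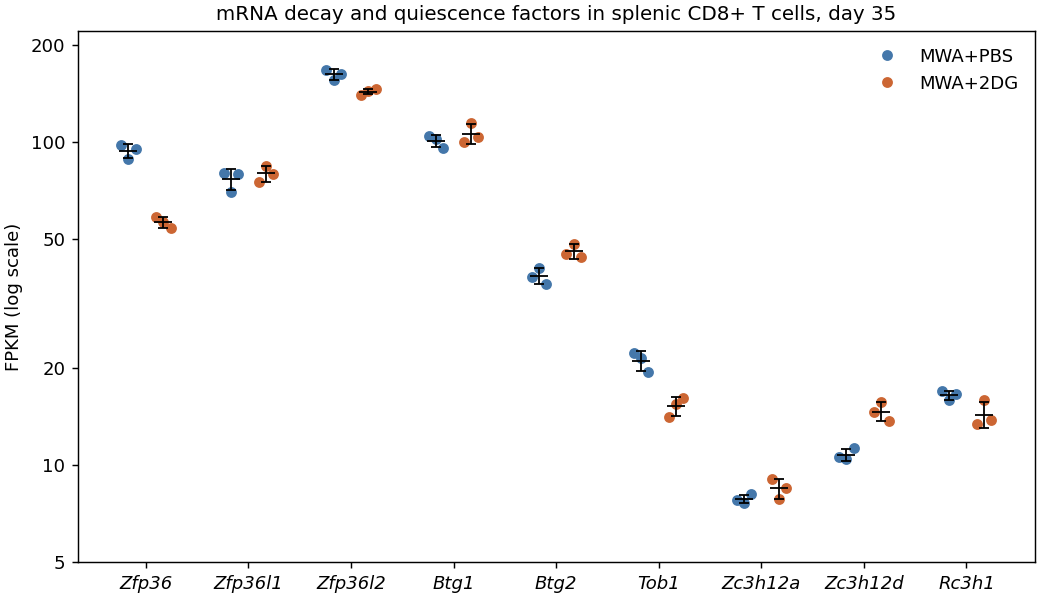
FPKM on a log axis (vertical) of the 9 genes (horizontal) in the 3 MWA+PBS samples (blue) and the 3 MWA+2DG samples (orange), with mean and SD in black. The groups stand apart for Zfp36, Zfp36l2, Btg2, Tob1 and Zc3h12d and overlap for Zfp36l1, Btg1, Zc3h12a and Rc3h1.

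Of the genes whose products act on stem-loops or cut RNA, Zc3h12d was higher in FPKM as deposited. Zc3h12d (ENSMUSG00000039981, Regnase-4), a lymphocyte relative of Regnase-1, was 10.5, 10.4 and 11.2 FPKM in MWA+PBS and 14.5, 15.6 and 13.7 FPKM in MWA+2DG. All 3 MWA+2DG samples were above all 3 MWA+PBS samples, and the mean was 36.4% higher. The log2 fold change was 0.41 ± 0.07 (SE, limma adjusted p = 0.00232). The call held without any single sample, but after scaling to T lineage genes the value was -0.06 and did not pass (limma adjusted p = 0.513). Zc3h12a, which T cell receptor signalling inactivates through the protease Malt1, was 7.78, 7.62 and 8.09 FPKM in MWA+PBS and 9.05, 7.83 and 8.48 FPKM in MWA+2DG. Its groups overlapped. The difference of 0.10 did not pass (limma adjusted p = 0.29), with a 95% confidence interval of -0.06 to 0.25.

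Rc3h1 was 16.9, 15.8 and 16.5 FPKM in MWA+PBS and 13.4, 15.8 and 13.7 FPKM in MWA+2DG. MWA+2DG replicate 5 lay within the MWA+PBS range and the other MWA+2DG samples below it. The log2 fold change of -0.19 ± 0.07 (SE) did not pass (limma adjusted p = 0.0775), and without MWA+2DG replicate 5 it was -0.26 and passed (limma adjusted p = 0.0212). The ratio of Zc3h12a to Zc3h12d was 0.739, 0.733 and 0.720 in MWA+PBS and 0.623, 0.501 and 0.619 in MWA+2DG, a log2 difference of -0.34. The ratio of Rc3h1 to Zc3h12a was 2.17, 2.07 and 2.04 in MWA+PBS and 1.48, 2.02 and 1.62 in MWA+2DG, a difference of -0.31. The exact permutation p was 0.1 for each. In all, 7 ratios were computed, and the Benjamini-Hochberg adjusted exact p was 0.1 for each of them.

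Counts were read against all genes. Of the 9 members, 3 were lower and 2 higher in MWA+2DG (limma adjusted p under 0.05), where 39.4% of the 12444 tested genes passed in either direction. The lower members were 33.3% of the 9, against 17.1% of all tested genes, and the higher members 22.2%, against 22.3%. In 5 of the 9 the groups did not overlap, against 52.1% of all tested genes. The share of higher members was thus near that of all genes and the share of lower members above it, on a count of 3 genes. Zfp36l2, among these 3, lost its call without any 1 sample other than MWA+PBS replicate 2. No member changed by more than 1 on the log2 scale. The median log2 fold change of the 9 was 0.06, beside 0.05 for all tested genes. It was 0.0922 without MWA+PBS replicate 1, -0.0039 without MWA+PBS replicate 2, 0.0358 without MWA+PBS replicate 3 and 0.0173 without MWA+2DG replicate 5, and -0.0035 with arrayWeights, so its sign was not settled.

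FPKM is relative to the whole library, and T lineage transcripts took a larger share in MWA+2DG. The mean log2 level of the 20 T lineage genes was 0.48 higher there. For scaling, each sample's mean over these genes, centred over all samples, was subtracted from its log2(FPKM + 1) values. It lowers the fold change of low genes by more than dividing FPKM would. After this scaling 8 members were lower and 0 higher in MWA+2DG, where 73.7% of all tested genes were lower. Zfp36 was then -1.20 (limma adjusted p = 3.53e-06) and Tob1 -0.92 (limma adjusted p = 2.58e-05). The values of Btg2, Zfp36l1, Btg1, Zc3h12a and Zc3h12d changed sign under that scaling. The 95% confidence interval of Zc3h12d was then -0.26 to 0.13. Every value between 0 and 0.48 had to change sign, so the direction for these 5 genes rests on the reference chosen. The shift lowers every gene, so values already below 0 could not change sign.

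**Figure D3:**
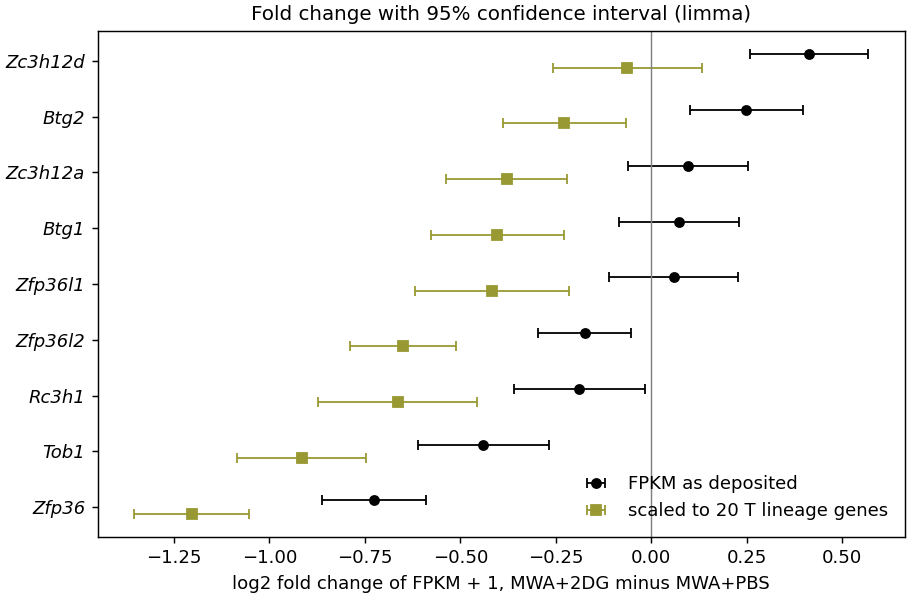
Log2 fold change of FPKM + 1 (horizontal axis, MWA+2DG minus MWA+PBS) with its 95% confidence interval for each of the 9 genes, from FPKM as deposited (black circles) and after scaling to 20 T lineage genes (olive squares). Zfp36 is lowest with either scaling, at -0.73 and -1.20, and Zc3h12d is highest, at 0.41 and -0.06.

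The members also changed places in the order of levels per length. In MWA+PBS the order from high to low was Zfp36l2, Btg1, Zfp36, Zfp36l1, Btg2, Tob1, Rc3h1, Zc3h12d and Zc3h12a, and of these neighbours only Btg1 and Zfp36 had overlapping ranges. In MWA+2DG Zfp36 came after Zfp36l1, and Zc3h12d came before Rc3h1. There the ranges of Tob1, Zc3h12d and Rc3h1 overlapped from neighbour to neighbour, and those of all other neighbours did not. Zfp36l2 stood above 98.4% of the tested genes in mean FPKM over the 6 samples and Zc3h12a, the lowest member, above 56.9%.

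The machinery that carries out decay was examined next, in lists written by hand. CCR4-NOT, the deadenylase that most members recruit, gave 1 lower and 0 higher of 11 genes, with Cnot4 at -0.20 (limma adjusted p = 0.0275). The lower share of 9.09% was below the 17.1% of all tested genes. The list had 0 calls without MWA+PBS replicate 1 or 3 or without MWA+2DG replicate 4, 5 or 6, and 2 higher and 2 lower without MWA+PBS replicate 2. Where Cnot4 was lost its limma adjusted p was 0.0588 to 0.0950. Its summed level was 206.1 to 213.2 FPKM in MWA+PBS and 210.5 to 217.5 FPKM in MWA+2DG. The other deadenylases and poly(A) binding proteins were mixed, with 1 of 5 higher (20%) and 2 lower (40%), beside 22.3% and 17.1% of all tested genes. Pan2, the catalytic subunit of PAN2-PAN3, was higher at 0.31 (limma adjusted p = 0.00565), while its partner Pan3 was lower at -0.28 (limma adjusted p = 0.0148) and Pabpc4, a poly(A) binding protein, at -0.35 (limma adjusted p = 0.00568). The call of Pan3 was lost without MWA+2DG replicate 4 (limma adjusted p = 0.0524), and without MWA+PBS replicate 2 the list gave 2 higher and 3 lower of 5. After scaling to T lineage genes, 10 of 11 CCR4-NOT genes (90.9%) and 5 of 5 genes of the other list were lower, beside 73.7% of all tested genes.

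In the decapping and 5' decay list 4 of 17 genes were higher (23.5%) and 1 lower (5.88%), beside 22.3% and 17.1% of all tested genes. Without MWA+PBS replicates 1, 2 and 3 the higher genes numbered 1, 6 and 2, and without MWA+2DG replicates 4, 5 and 6 they numbered 0, 1 and 1. Each of the 5 calls of this list was lost without 2 or more of the single samples, with limma adjusted p of 0.0502 to 0.120. Lsm5, of the LSM ring that binds shortened tails, was higher at 0.84 (limma adjusted p = 0.0227), but at only 1.07 to 5.29 FPKM. Xrn1, the 5' to 3' exonuclease, was higher at 0.26, and Dcp1b and Edc4, cofactors of decapping, at 0.22 and 0.17. Patl1, a decapping activator, was lower at -0.18. In the exosome and SKI list 5 of 15 were higher (33.3%, against 22.3% of all tested genes) and 0 lower, with 3 higher without MWA+PBS replicate 3. The call of Exosc1 was lost without MWA+PBS replicate 1 (limma adjusted p = 0.0561) or 3 (0.0529) or MWA+2DG replicate 6 (0.0645). That of Exosc4 was lost without MWA+PBS replicate 3 (limma adjusted p = 0.0688) or MWA+2DG replicate 4 (0.0750) or 5 (0.0560). Among them were Skiv2l at 0.34 (limma adjusted p = 0.00431) and Ttc37 at 0.33 (limma adjusted p = 0.00476), which form the SKI complex that feeds the cytoplasmic exosome. Exosc1 and Exosc4, exosome subunits, were higher at 0.32 and 0.31, and Exosc9, another subunit, at 0.31. After scaling to T lineage genes the decapping list gave 0 higher and 14 lower (82.4%). The exosome and SKI list gave 0 higher and 10 lower (66.7%), and of all tested genes 73.7% were lower. Of the genes named as higher only Lsm5 stayed above 0. The list medians were 0.15 for decapping and 0.16 for the exosome, beside 0.05 for all tested genes.

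Of the members' relatives, Tob2, the paralog of Tob1, was lower at -0.38 (limma adjusted p = 0.00499), from 9.86 to 11.3 FPKM in MWA+PBS to 7.44 to 8.34 FPKM in MWA+2DG. Both TOB genes thus fell, with ranges that did not overlap. Of the 7 relatives 3 passed the filter on low values, and Btg3 and Rc3h2 did not pass the test, at -0.09 and -0.01. Other binders of AU-rich elements moved both ways, with 2 of 6 higher (33.3%) and 1 lower (16.7%), beside 22.3% and 17.1% of all tested genes. They were 3 and 2 without MWA+PBS replicate 2. After T lineage scaling 1 was higher and 5 lower (83.3%, against 73.7% of all tested genes). Tia1, which represses translation of such mRNAs, rose from 5.11 to 5.75 FPKM up to 9.51 to 10.2 FPKM, with 0.75 as the log2 fold change (limma adjusted p = 0.000116). Tial1, its paralog, was higher at 0.25 (limma adjusted p = 0.0487) but -0.23 after that scaling, and its call was lost without any 1 sample other than MWA+PBS replicate 2 (limma adjusted p of 0.0774 to 0.148). Ybx1, an abundant mRNA packaging protein, was lower at -0.53 (limma adjusted p = 0.000253).

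Genes that control the members were compared as well. Of 8, 2 were higher (25%) and 3 lower (37.5%), beside 22.3% and 17.1% of all tested genes. Without MWA+PBS replicate 1 or MWA+2DG replicate 4, 5 or 6 they were 1 and 2. After T lineage scaling 0 were higher and 7 lower (87.5%, against 73.7% of all tested genes). Mapk14 and Mapkapk2 encode p38 and its target kinase MK2, which phosphorylates the Zfp36 protein and holds it inactive. Mapkapk2 was 32.3, 28.7 and 34.6 FPKM in MWA+PBS and 20.3, 21.5 and 19.7 FPKM in MWA+2DG, which differ by -0.61 on the log2 scale (limma adjusted p = 0.000669). Mapk14 was lower at -0.41 (limma adjusted p = 0.000694). Both kinase mRNAs were thus lower in the same samples as Zfp36. Malt1, the protease that cleaves Regnase-1 and Roquin proteins, was 8.49, 8.55 and 8.99 FPKM in MWA+PBS and 12.2, 12.4 and 12.5 FPKM in MWA+2DG, a log2 difference of 0.46 (0.000451 as limma adjusted p). After T lineage scaling it was -0.01 and the call was lost. Ywhab, a 14-3-3 protein of the kind that binds phosphorylated Zfp36, was lower at -0.16 (limma adjusted p = 0.0387), a call also lost without any 1 sample other than MWA+PBS replicate 2 (0.0779 to 0.139).

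**Figure D4:**
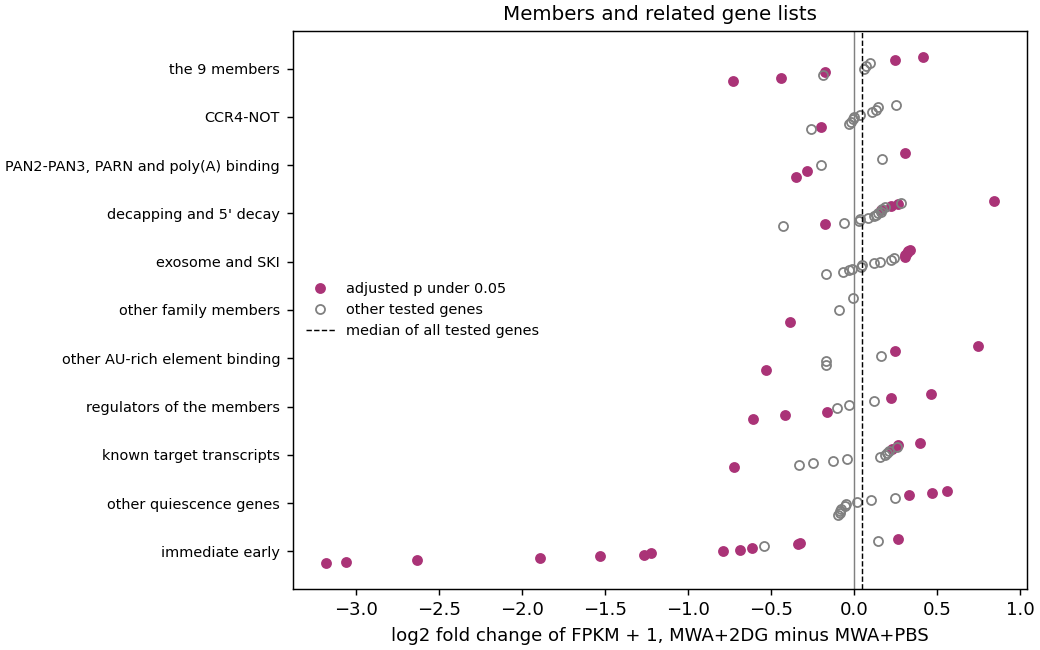
Log2 fold change of FPKM + 1 (horizontal axis) of each tested gene in the 9 members and in each related list (rows), filled where the limma adjusted p was under 0.05, with the median of all tested genes dashed. The immediate early genes reach -3.18, and the other lists lie between -0.73 and 0.84.

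Over the 7 lists of machinery, relatives, other binders and regulators, 14 of 65 tested genes were higher (21.5%) and 9 lower (13.8%), beside 22.3% and 17.1% of all tested genes. After T lineage scaling 1 was higher and 54 lower (83.1%), beside 73.7% of all tested genes lower. The count of 23 fell to 14 without MWA+PBS replicate 1, 15 without MWA+PBS replicate 3, and 12, 15 and 15 without MWA+2DG replicates 4, 5 and 6. It rose without MWA+PBS replicate 2.

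Known targets of these factors did not move as a block. Of 19 target transcripts 13 were expressed enough to test, and 3 were higher and 1 lower, with a median of 0.19, beside 0.05 for all tested genes. The higher share of 23.1% was near the 22.3% of all tested genes, and the lower share of 7.69% was below their 17.1%. The median was 0.0449 over all 19 with no filter, 0.0123 at a minimum of 5 FPKM and 0.1033 without MWA+PBS replicate 1. Quantile normalization and median ratio scaling each gave 3 and 3, arrayWeights 6 and 3, and the fit without MWA+PBS replicate 2 gave 5 and 2. After T lineage scaling 0 were higher and 8 lower (61.5%, against 73.7% of all tested genes), the median was -0.29, beside -0.43 for all tested genes, and Myc, Irf4 and Nfkbid were below 0. Myc, the growth regulator, was higher at 0.27 (limma adjusted p = 0.0114). Irf4, a transcription factor of activated T cells, was higher at 0.40 (limma adjusted p = 0.00321) and Nfkbid, a nuclear inhibitor of NF-kB, at 0.23 (limma adjusted p = 0.0252). The call of Nfkbid was lost without MWA+PBS replicate 1 (0.0903) or MWA+2DG replicate 4 (0.0861). Ccl3, a chemokine, was lower at -0.72 (limma adjusted p = 0.00893), from 9.92 to 14.2 FPKM down to 6.08 to 8.74 FPKM. Tnf and Ifng, the classic AU-rich cytokine mRNAs, did not pass, at 0.21 and -0.04. Il2, Il6, Il10, Csf2, Cxcl2 and Ptgs2 were below the filter, under 1 FPKM in every sample. Of these, Il2, Il6, Cxcl2 and Ptgs2 were lower in MWA+2DG without overlap, and Il10 and Csf2 overlapped. Without MWA+PBS replicate 2, Tnf was 0.42 and passed (limma adjusted p = 0.0301).

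A wider view came from sequence. Of the tested genes with an annotated 3' untranslated region, 814 held at least 1 UUAUUUAUU nonamer, and 25.3% of them were higher and 15.4% lower in MWA+2DG. For the 9262 genes without the nonamer these shares were 22.5% and 17.9%. The median log2 fold change was 0.07 with the nonamer and 0.04 without it. In the 182 genes with at least 2 nonamers the median was 0.10. Median length of the region was 2325 bases with the nonamer and 1073 without it, so the classes differ in length. Among regions of at most 2000 bases, 24.7% of the 89 genes with at least 3 heptamers were higher and 22.5% lower, against 22.1% and 18.0% of all 7122. There the share of lower genes was the greater with the motif. These classes were formed after the values were seen and carry no test.

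Of 12 other genes known for T cell quiescence, 3 were higher and 0 lower in FPKM as deposited, and 0 higher and 9 lower after T lineage scaling. These are 25% higher against 22.3% of all tested genes, and 75% lower against 73.7%, so both shares were near those of all genes. They were Ptpn2, a phosphatase that dampens cytokine signalling, at 0.56 (limma adjusted p = 0.00344), Foxo1, a transcription factor of naive and memory cells, at 0.47 (limma adjusted p = 0.00117), and Slfn2, required for quiescence, at 0.33 (limma adjusted p = 0.00561). Foxo1 was 19.7 to 21.9 FPKM in MWA+PBS and 28.0 to 31.3 FPKM in MWA+2DG. The median of the list was -0.02, and it ran from -0.0128 to 0.0040 when each sample was left out. Klf2 did not pass, at 0.25 (limma adjusted p = 0.155).

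Immediate early genes, the class to which Zfp36 and Btg2 belong, were called lower in 12 of 15 cases in FPKM as deposited (limma adjusted p under 0.05). That is 80%, against 17.1% of all tested genes. Myc was the only one called higher. Atf3 was lower at -0.54 and Egr2 higher at 0.14, and neither passed (limma adjusted p = 0.0669 and 0.316). The lower calls numbered 10 without MWA+PBS replicate 1 and 10 with no filter on low values. After T lineage scaling 15 of 15 were lower, Myc included, where 73.7% of all tested genes were lower. The summed level of the list was 594.6 to 652.1 FPKM in MWA+PBS and 280.7 to 293.8 FPKM in MWA+2DG. Jun, Fosb, Fos and Dusp1 had the largest decreases, at -3.18, -3.06, -2.63 and -1.89. Zfp36 moved the same way by less, and Btg2 moved the other way in FPKM as deposited but not after T lineage scaling. How far Zfp36 depends on the fall of these genes was not tested.

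The genes whose levels ran closest to a member were sought by the root mean square difference of centred log2 levels over the 6 samples. Pim1, a survival kinase, was nearest to Zfp36 with a difference of 0.016, at 28.0, 24.95 and 26.4 FPKM in MWA+PBS and 16.3, 15.4 and 14.7 FPKM in MWA+2DG. Sil1 and Csrp1 came next, at 0.037 and 0.040. Rell1, Stil and Gpr65 were nearest to Tob1, with differences of 0.025 to 0.046. For Zc3h12d they were 6530402F18Rik, Haspin and Nsg2, at 0.020 to 0.030. Such likeness is a description over 6 samples in which most of the variation lies between the groups.

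Antisense genes overlap a pair of members in the annotation. Gm44710 at Zfp36 was 0.00 to 0.44 FPKM over the 6 samples. AC132455.1 at Zfp36l2 was 0.45 to 1.05 FPKM in MWA+PBS and 1.41 to 1.81 FPKM in MWA+2DG, ranges that did not overlap, with MWA+2DG the higher, while Zfp36l2 was the lower there. Gm26669, opposite Zfp36l1, was not analysed here. The library kit marked strand, but no source used here says that quantification used it, and reads of a gene and its antisense partner may not have been told apart.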

How the data were processed

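Bulk RNA-seq of splenic CD8+ T cells, 3 MWA+PBS and 3 MWA+2DG samples, was grouped by the GEO labels. Per its methods, quality control used fastp and mapping HISAT2, and the authors derived FPKM with StringTie and ballgown. The submitters' processing notes also name cutadapt 1.9, HISAT2 2.0.4, UMI-tools, StringTie 1.3.4d and mm9. The deposited FPKM values hold no counts and have 2 decimals, so depth and counting error are unknown. RefSeq promoters are on GRCm38.p6, and no coordinate was carried between builds.

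Symbols were matched through the gene table of GENCODE M21. Genes with a mean FPKM of at least 1 (12444) were tested on log2(FPKM + 1), which understates changes of low genes, with limma 3.58.1 in R 4.3.3 (lmFit, and eBayes with its trend option) as a two-sided test of MWA+2DG against MWA+PBS, with Benjamini-Hochberg adjustment over all of them. Genes were called at an adjusted p under 0.05. The fit was tested on simulated data. Ratios of members used two-sided exact permutation tests in scipy 1.17.1. The members and the lists were chosen with earlier results of these data known. Named genes were the members, up to 4 genes called in each direction per list, identity markers and the 3 nearest genes of the 3 members with the largest change. Exosc9, the only other gene called in its list, and a few genes that did not pass were named after their values were seen, to complete a list or a family. Klra8 had no match in the files. A further listed gene enters the counts and is not reported here.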

Additional observations from a re-analysis of the deposited data

How the results depend on the processing

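No paired analysis was possible because no replicate number occurs in both groups (1, 2 and 3 against 4, 5 and 6). The removal of GC and length trends was chosen after seeing the data.

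The 5 calls among the members became 8 with T lineage scaling, 3 when P under 0.05 and a size over 0.25 on the log2 scale were asked, and 0 beyond 1. Leaving out each sample gave 3 to 5 members, 3 of them without MWA+PBS replicate 1 or 3. The 4907 genes called became 2951 once the minimum mean was raised to 5 FPKM and 9566 with T lineage scaling, and 3706 to 5195 when each sample was left out. The 23 calls in the 7 lists of decay machinery, relatives and regulators became 55 (1 higher, 54 lower) with T lineage scaling and 39 with arrayWeights, and 12 to 33 when each sample was left out. List by list, arrayWeights gave 3 higher and 2 lower for CCR4-NOT, 2 and 3 for PAN2-PAN3, 8 and 2 for decapping, 8 and 0 for the exosome and 3 and 2 for other AU-rich element binders. A minimum of 5 FPKM gave 2 and 1 for decapping and 2 and 0 for the exosome. In eBayes without a trend decapping had 3 and 0 and the regulators 1 and 2, and with GC and length trends removed decapping had 8 and 1 and CCR4-NOT 1 and 2. Apart from the T lineage scaling, which lowers all genes alike, and the filter, which leaves 7313 genes, the cause was not tested. The ratios do not depend on library scaling, and leaving out 1 sample cannot turn groups that do not overlap, so their direction was not put to a test.

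T lineage scaling reversed Zfp36l1 (-0.42), Btg1 (-0.40), Btg2 (-0.23), Zc3h12a (-0.38), Zc3h12d (-0.063), Pan2 (-0.17), Xrn1 (-0.21), Dcp1b (-0.25), Edc4 (-0.31), Skiv2l (-0.14), Ttc37 (-0.15), Exosc1 (-0.16), Exosc4 (-0.17), Exosc9 (-0.17), Tial1 (-0.23), Malt1 (-0.011), Irf4 (-0.078), Myc (-0.21), Nfkbid (-0.25), Slfn2 (-0.14), Tnf (-0.26), Klf2 (-0.23), Cd3e (-0.10) and Lyz2 (-0.066), and turned the log2 fold change of Foxo1 to -0.00515. Zfp36l1, not called, was also -0.0035 with arrayWeights and -0.0039 without MWA+PBS replicate 2, in a range up to 0.10 when each sample was left out. When each sample was left out, Rc3h2 ran from -0.084 to 0.055 and Ifng from -0.17 to 0.13, and the log2 fold change of Ifng was 0.096 with arrayWeights; neither was called. The call of Zfp36l2 was also lost without a filter (limma adjusted p = 0.0539) and in eBayes without a trend (0.0565). Rc3h1 was called lower with arrayWeights (-0.24) and with GC and length trends removed (-0.25). How much of the spread is due to depth is unknown, since the files hold no counts.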
